A study of Mus musculus with 8 samples.

Results

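The cytosolic ribosomal protein genes encode the protein parts of the ribosome, the machine that translates messenger RNA. Their symbols were chosen as Rpl or Rps followed by a number and an optional suffix, or Rplp0 to Rplp2, with at least 10 counts in at least 2 libraries. This gave 79 members of the 24369 gene symbols in the count table, 47 of the large subunit and 32 of the small subunit. Another 4 of the 83 matching symbols missed the minimum.

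The 8 libraries came from wild-type (WT) mice bearing MC38-EGFP tumours, grown from a mouse colon carcinoma line that carries enhanced green fluorescent protein (EGFP). Conventional dendritic cells were sorted from the tumours as cDC1, known for presenting dead-cell antigen to CD8 T cells, or cDC2, known for activating CD4 T cells. Both were split by EGFP signal, and the 4 groups (cDC1 EGFP-, cDC1 EGFP+, cDC2 EGFP- and cDC2 EGFP+) held 2 libraries each. All groups shared the WT genotype and the tumour model. The series title names sitagliptin, an inhibitor of the peptidase DPP4, but the labels give no drug, age or strain for these libraries. The labels also list the cell type as colon cancer, whereas the titles give the dendritic cell subsets used here.

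In textbook terms, each cytosolic ribosome holds 1 copy of most of these proteins, so their genes are usually expressed together and at high levels. Their mRNAs typically begin with a run of C and T (pyrimidine) bases, the 5′ terminal oligopyrimidine or TOP motif, through which mTOR and LARP1 control their translation. Dendritic cells raise protein synthesis when they are activated, but translation was not measured here, only RNA.

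Sequences around the annotated start are shown first because the C/T run is a shared feature that the symbol rule did not use. The RefSeq promoter table for GRCm38.p6 held 58 of the 79 members. Each line gives a 30-base window, 5′ to 3′ on the gene's strand, with the longest C/T run within 50 bases of the annotated start in capitals.
Rps6, chr4:86857349-86857378, minus strand: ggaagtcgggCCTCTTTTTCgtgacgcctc
Rpl14, chr9:120571501-120571530, plus strand: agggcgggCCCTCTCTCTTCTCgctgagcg
Rpl35a, chr16:33056469-33056498, plus strand: ggggcttgCCTTCCTCTTTCCgccatcttg
Rplp2, chr7:141447636-141447665, plus strand: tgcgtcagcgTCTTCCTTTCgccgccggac
Rpl38, chr11:114668568-114668597, plus strand: ggaagcctcgTTCTTTCCCCgttctcttcg
Rps24, chr14:24490711-24490740, plus strand: agcggTCCTCTTTTCCTCCTCTCCagctcc
Rpl4, chr9:64173406-64173435, plus strand: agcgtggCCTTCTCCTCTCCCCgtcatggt
Rplp0, chr5:115559467-115559496, plus strand: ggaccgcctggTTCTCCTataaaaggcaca
Rps28, chr17:33824566-33824595, minus strand: ctgtcccgaggaTTCCTgggtaccgcgtgc

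A run of at least 8 C or T bases was present in 49 of the 58 windows (84.5%), against 41.4% of the 27025 genes in the table. Rps28 and Rplp0, with runs of 5 and 7 bases, were among the 9 members without one. Runs began at position 26 from the annotated start in Rpl4 and at -37 in Rps24. The scan did not test whether an mRNA begins with the run, so it does not show which members have or lack a TOP motif. The letters CCGGAAG, the core bound by ETS factors, occurred on either strand in 23 members (39.7%) and in 9.93% of all genes in the table. Here and for the other letters, a gene counted when any of its listed promoters matched. ATGGCGG, a YY1 core, occurred in 11 members (19.0%) and in 4.69% of all. TATAAA was as frequent in members (10.3%) as in all genes in the table (9.77%). The oligopyrimidine letters CTCTTTCC, which can overlap a C/T run, occurred in 7 members (12.1%) and in 1.76% of all. These matches describe the sequences and show no binding or control in these cells.

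Library totals ran from 17869441 to 22195681 counts, and the 45S ribosomal RNA precursor gene Rn45s took 19.4% to 35.6% of them. The libraries detected 8208 to 11922 genes, with the cDC1 EGFP+ pair lowest. The cDC1 EGFP+ replicates also agreed least. CPM are counts scaled to a common library total and here also by TMM, which is explained below. Over genes with a mean of at least 20 CPM, the median absolute log2 difference between these replicates was 0.97, against 0.34 to 0.47 in the other groups. Macrophage markers were abundant in the cDC2 sort: 10 markers summed to 17940 to 38862 CPM in cDC2 libraries, 2081 and 2578 CPM in cDC1 EGFP-, and 422 and 11018 CPM in cDC1 EGFP+. Of these, Lyz2 alone had 1705 and 2276 CPM in cDC1 EGFP- and 290 and 8773 CPM in cDC1 EGFP+. C1qa, also among the 10, had 979 to 2478 CPM in cDC2 and at most 4.21 CPM in cDC1 libraries. The cDC genes Flt3 and Zbtb46 were at most 10.8 and 1.04 CPM in cDC2 libraries, so these 2 cDC markers were near absent there. A list of 6 cDC2 markers summed to 677 to 839 CPM in cDC2 and 6.73 to 326 CPM in cDC1 libraries. In EGFP- cells, 4 of these 6 were lower in cDC1 than in cDC2 and 2 were higher. In EGFP+ cells, all 6 were lower in cDC1. The 8 cDC1 markers summed to 3752 and 3304 CPM in cDC1 EGFP- and to 1583 and 2608 CPM in cDC1 EGFP+. The 4 stroma markers summed to 806 CPM in cDC1 EGFP+ replicate 1 and to 169.5 CPM in cDC2 EGFP+ replicate 2, and to at most 10.5 CPM in any other library. The part of these differences in the ribosomal protein results was not tested. In bulk samples, fewer cells of a type and less RNA per cell cannot be told apart.

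By group mean, the ribosomal protein genes together took the largest shares of counts in cDC1 EGFP- and cDC2 EGFP+, the latter resting on replicate 2. Their summed share was 4.55% and 4.54% in the 2 cDC1 EGFP- libraries, 3.84% and 2.68% in cDC1 EGFP+, 2.40% and 3.58% in cDC2 EGFP-, and 3.50% and 5.33% in cDC2 EGFP+. Means were 4.54% ± 0.00349 (SD, n = 2), 3.26% ± 0.818, 2.99% ± 0.840 and 4.42% ± 1.29 in that order. Both cDC1 EGFP+ libraries were below both cDC1 EGFP- libraries, whereas the 2 cDC2 groups overlapped.

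Removing Rn45s from the totals gave 6.14% and 6.38% in cDC1 EGFP-, 5.54% and 4.17% in cDC1 EGFP+, 3.26% and 4.45% in cDC2 EGFP-, and 4.66% and 7.76% in cDC2 EGFP+. Both pairs of EGFP fractions were then separate, in opposite directions. The 95% Wilson intervals of these shares reached at most 0.0148 percentage points to each side and cover counting error only. That was far less than the difference between replicates in all 4 groups. With Rn45s kept, the 2 cDC1 EGFP- shares (4.545% and 4.540%) lay within each other's intervals. The large subunit supplied 56.9% to 61.1% of the ribosomal protein counts in every library, and the 10 most abundant members 29.4% to 35.1%.

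**Figure D1:**
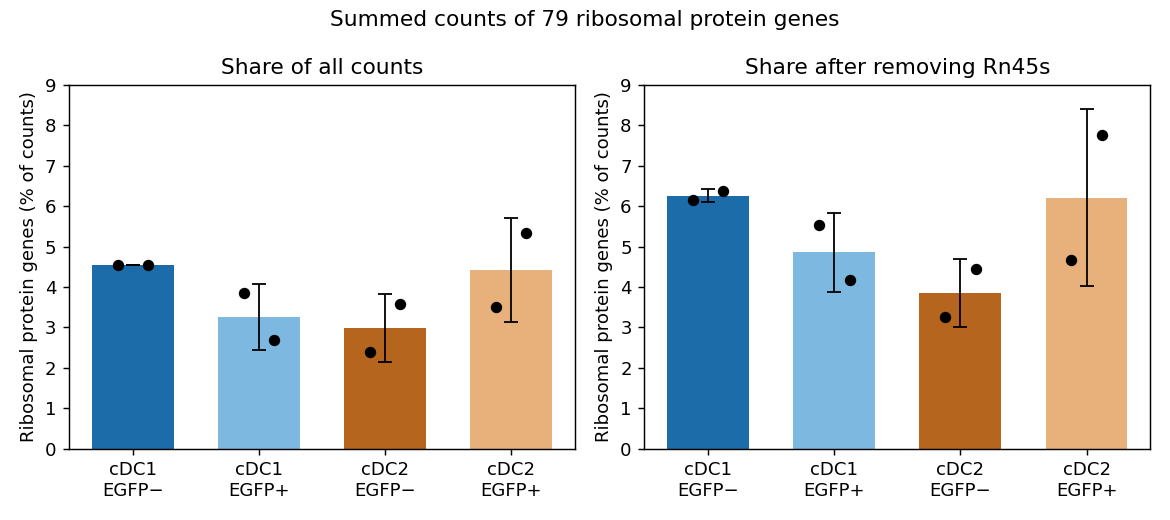
Share of counts from the 79 ribosomal protein genes (vertical axis, percent of counts) in each group, before and after removing Rn45s. Bars are means, error bars SD and points the 2 libraries of each group; after removal, both cDC1 EGFP+ points lie below both cDC1 EGFP- points, and both cDC2 EGFP+ points above both cDC2 EGFP- points.

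Levels below, like the marker levels above, are CPM scaled by TMM, a normalization for differences in RNA composition. Fold changes are log2 with standard errors (SE). Each comparison used edgeR's quasi-likelihood test over 11394 genes, all 79 members among them, and a member counted as called at an adjusted p below 0.05.

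In cDC1, most ribosomal protein genes were lower in EGFP+ than in EGFP- cells, but none passed the threshold. The log2 fold change was negative for 73 of 79 members, against 50.8% of all genes tested. Its median was -0.50, against -0.04 over all genes. Both EGFP+ libraries lay below both EGFP- libraries for 60 members, against 24% of all genes. No gene of any kind was called (background 0%), and 11 members had an unadjusted p under 0.05 and were lower, against 8.39% of all genes.

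Rpl32, a large subunit protein, had the smallest p of the members. Its levels were 901 and 795 CPM in cDC1 EGFP- and 377 and 445 CPM in cDC1 EGFP+, so the groups did not overlap. The log2 fold change was -1.04 ± 0.33 (SE), with an edgeR adjusted p of 0.288. Rps29, a small zinc-binding protein of the small subunit, had 578 and 574 CPM in EGFP- and 240 and 354 CPM in EGFP+ cDC1 (log2 fold change -0.96 ± 0.30). Rpl14 had 743 and 695 against 309 and 452 CPM (-0.92 ± 0.30). Rpl37 and Rps20 followed, at -0.92 and -0.90. The 4 cycling markers (Mki67, Top2a, Ccnb1 and Cdk1) summed to 237 and 200 CPM in cDC1 EGFP- and to 10.4 and 30.2 CPM in cDC1 EGFP+, with Mki67 and Ccnb1 at 0 in replicate 1. Their part in the result was not tested.

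In cDC2, the direction was the opposite: most members were higher in EGFP+ than in EGFP- cells, again with none past the threshold. The fold change was positive for 71 of 79 members, against 53.1% of all genes, and the median was 0.62 against 0.08. Without cDC2 EGFP+ replicate 2 the median over members was 0.31. Both EGFP+ libraries exceeded both EGFP- libraries for 56 members, against 22.6% of all genes, and lay below them for 3 members, Rpl4, Rpl7l1 and Rps4l, against 19.2% of all genes. The background of called genes was 0%, and 20 members had an unadjusted p under 0.05 and were higher, against 1.1% of all genes.

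Rps28, a small subunit protein near the mRNA exit channel, had 146 and 193 CPM in cDC2 EGFP- and 309 and 475 CPM in cDC2 EGFP+. The groups did not overlap, and the log2 fold change was 1.21 ± 0.33 (edgeR adjusted p = 1). Rpl35a was at 172 and 212 against 290 and 480 CPM, and Rpl41, a very short basic peptide of the large subunit, at 487 and 610 against 832 and 1235 CPM (0.91 ± 0.32). Rplp2 of the stalk and Rps20 followed, at 0.85 and 0.94. Replicate 2 of cDC2 EGFP+ was above replicate 1 for 72 of the 75 members with a mean of at least 20 CPM. Its summed cycling markers were 373 CPM against 71.8 CPM in replicate 1, and its 4 stroma markers 169.5 CPM against 0.156 CPM. The part of these markers in the result was not tested.

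The EGFP differences had opposite signs in the subsets for 68 of 79 members (86.1%), lower in cDC1 and higher in cDC2, against 27.2% of all genes and 25.4% of the 1025 genes with a mean of at least 100 CPM. For 46 members both pairs of groups were also separate, against 6.21% of all genes. The test of the difference itself (the interaction, the cDC1 difference minus the cDC2 difference) called 0 of 79 members, with a background of 0%. Its median was -1.09 for members and -0.20 over all genes, and 39 members had an unadjusted p under 0.05 with the lower sign, against 7.17% of all genes. Rps29 was first at -1.81 ± 0.43 (edgeR adjusted p = 0.320), followed by Rps28 at -1.91, Rps20 at -1.84, Rpl17 at -1.76 and Rpl37 at -1.71. DESeq2 called 4 of these, Rps20, Rps28, Rps29 and Rpl37, or 5.06% of members against 4.1% of all genes in this direction.

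**Figure D2:**
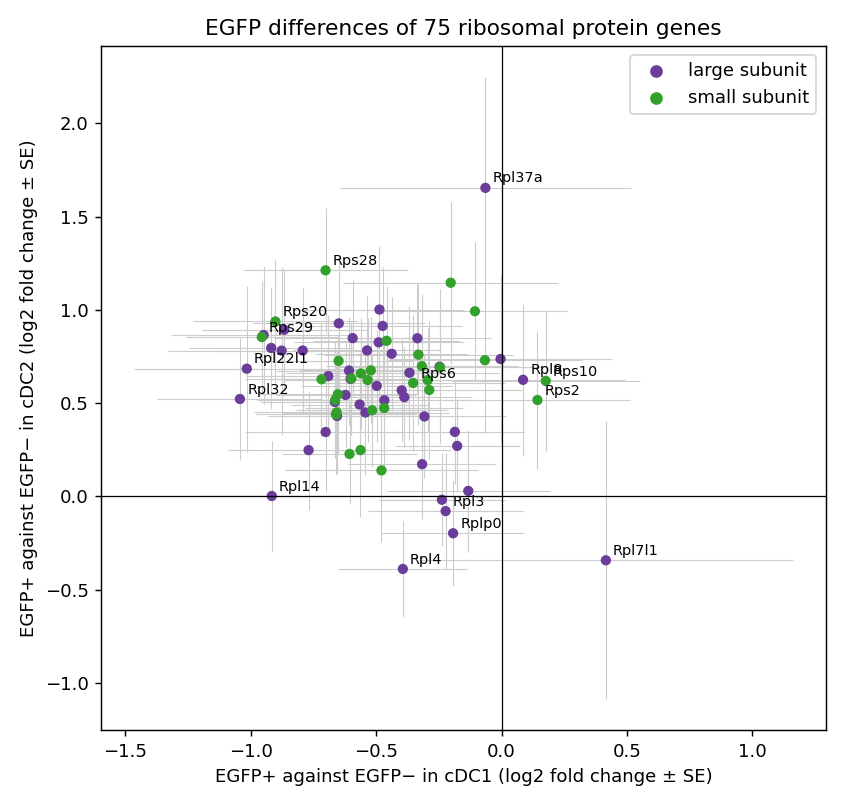
EGFP+ against EGFP- log2 fold change in cDC1 (horizontal axis) and in cDC2 (vertical axis) for the 75 members with a mean of at least 20 CPM, with SE bars, coloured by subunit. Most points lie in the upper left area, while Rpl4, Rplp0 and Rpl3 lie below the horizontal zero line.

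The 11 members outside this pattern were Rpl3, Rpl4, Rpl6, Rpl8, Rplp0, Rps2, Rps10, Rpl7l1, Rpl30, Rps27 and Rps4l. Rplp0, the stalk base and the most abundant member, had 2007 and 2171 CPM in cDC1 EGFP-, 2100 and 1553 in cDC1 EGFP+, 1374 and 1801 in cDC2 EGFP- and 1326 and 1441 in cDC2 EGFP+. Its EGFP difference was -0.19 in cDC1 and -0.20 in cDC2. Rpl4, a large subunit protein that lines the exit tunnel, was at 1621 and 1756, 1362 and 1208, 1098 and 1348, and 903 and 964 CPM in the same order, with -0.39 in both subsets. Rpl4 was therefore lower in both EGFP+ groups, without overlap in either.

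In EGFP- cells, nearly all members were higher in cDC1 than in cDC2. The fold change was positive for 77 of 79, against 47% of all genes, and both cDC1 libraries exceeded both cDC2 libraries for 74, against 21.9% of all genes. The median was 0.67, against -0.04 over all genes. The threshold was passed by 0 members and by 0.36% of genes, and 31 members had an unadjusted p under 0.05 and were higher, against 3.84% of all genes. This comparison shares the cDC1 EGFP- libraries with the EGFP comparison in cDC1 and the cDC2 EGFP- libraries with that in cDC2.

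Rpl14, a large subunit protein, had 743 and 695 CPM in cDC1 EGFP- and 303 and 356 CPM in cDC2 EGFP-. The groups did not overlap, and the log2 fold change was 1.12 ± 0.30 (edgeR adjusted p = 0.244). Rpl37 and Rps24 were at 0.99 and 0.87. DESeq2 called 2 members higher, Rpl14 among them, or 2.53% against 2.4% of all genes. Genes of high abundance were on the whole more often higher here: among the 1025 genes of at least 100 CPM, 42.2% separated in this direction, against 70 of their 73 members.

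In EGFP+ cells, members had a median of -0.35 in cDC1 against cDC2, close to the -0.30 over all genes. Both cDC1 libraries lay below both cDC2 libraries for 36 members, against 33.2% of all genes, and above for 4, Rpl4, Rpl6 and Rplp0 among them, against 13.7% of all genes. Over the 1025 genes of at least 100 CPM the median was 0.00, and 25.9% separated in the lower direction, against 34 of their 73 members. Without cDC2 EGFP+ replicate 2 the median over members was -0.11. The threshold was passed by 0 members and by 0.228% of genes, and 13 members had an unadjusted p under 0.05 and were lower, against 11.1% of all genes. Rps20 stood first, with 206 and 320 CPM in cDC1 and 551 and 657 CPM in cDC2, at -1.20 ± 0.33 (edgeR adjusted p = 0.168). Rps29, Rpl38, Rpl22l1 and Rpl41 followed, at -1.01, -1.18, -1.41 and -0.99. DESeq2 called Rps20 and Rps29 lower, or 2.53% of members against 9.85% of all genes.

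Averaged over both EGFP fractions, members had a median of 0.14 in cDC1 against cDC2, and all genes had a median of -0.28. The fold change was positive for 61 of 79 members, against 41.1% of all genes. The threshold was passed by 0 members and by 1.32% of genes, 2 members had an unadjusted p under 0.05 and were higher (5.31% of all genes), and 2 had all 4 cDC1 libraries above all 4 cDC2 libraries (3.96%). DESeq2 called 1 member higher, against 3.48% of all genes. Rpl14 was at 0.67 ± 0.28 (edgeR adjusted p = 0.339). Averaged over both subsets, EGFP gave a median of 0.04, with 0 members and 0% of genes past the threshold. No member had an unadjusted p under 0.05 there.

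**Figure D3:**
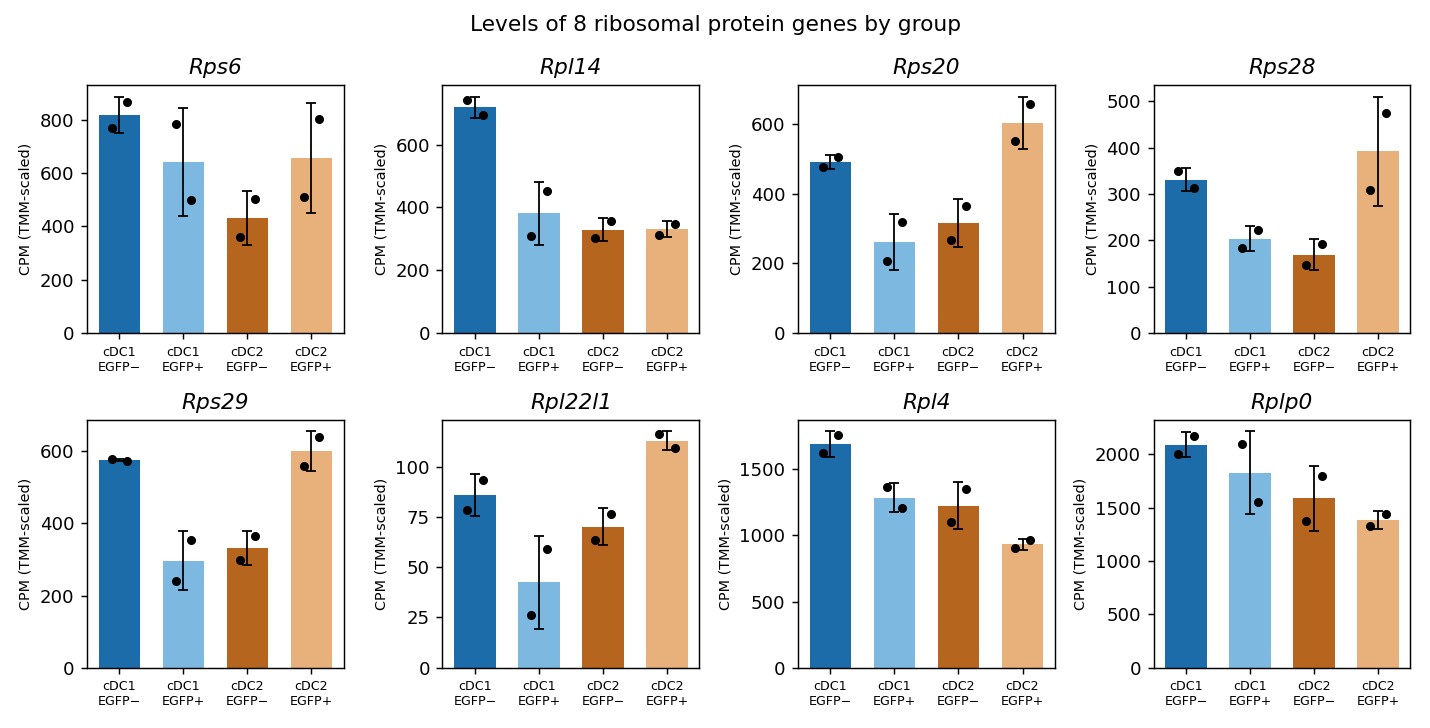
Level of 8 members (vertical axes, TMM-scaled CPM) in each group, with bars for means, error bars for SD and points for the 2 libraries. Rps20, Rps28 and Rps29 are low in cDC1 EGFP+ and cDC2 EGFP-, Rpl14 is highest in cDC1 EGFP-, and Rpl4 is lowest in cDC2 EGFP+.

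By group mean, 45 members were highest in cDC1 EGFP-, 30 in cDC2 EGFP+, 4 in cDC1 EGFP+ and 0 in cDC2 EGFP-. The shares of all genes tested were 25.1%, 28.1%, 26.2% and 20.6% in that order, and 36.3% of genes of at least 100 CPM were highest in cDC1 EGFP-. The lowest mean fell in cDC2 EGFP- for 52 members, against 16.4% of all genes, and in cDC1 EGFP+ for 20, against 34.6% of all genes. The subunits had similar medians: the median EGFP difference was -0.49 for the large and -0.52 for the small subunit in cDC1, and 0.59 and 0.62 in cDC2.

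**Figure D4:**
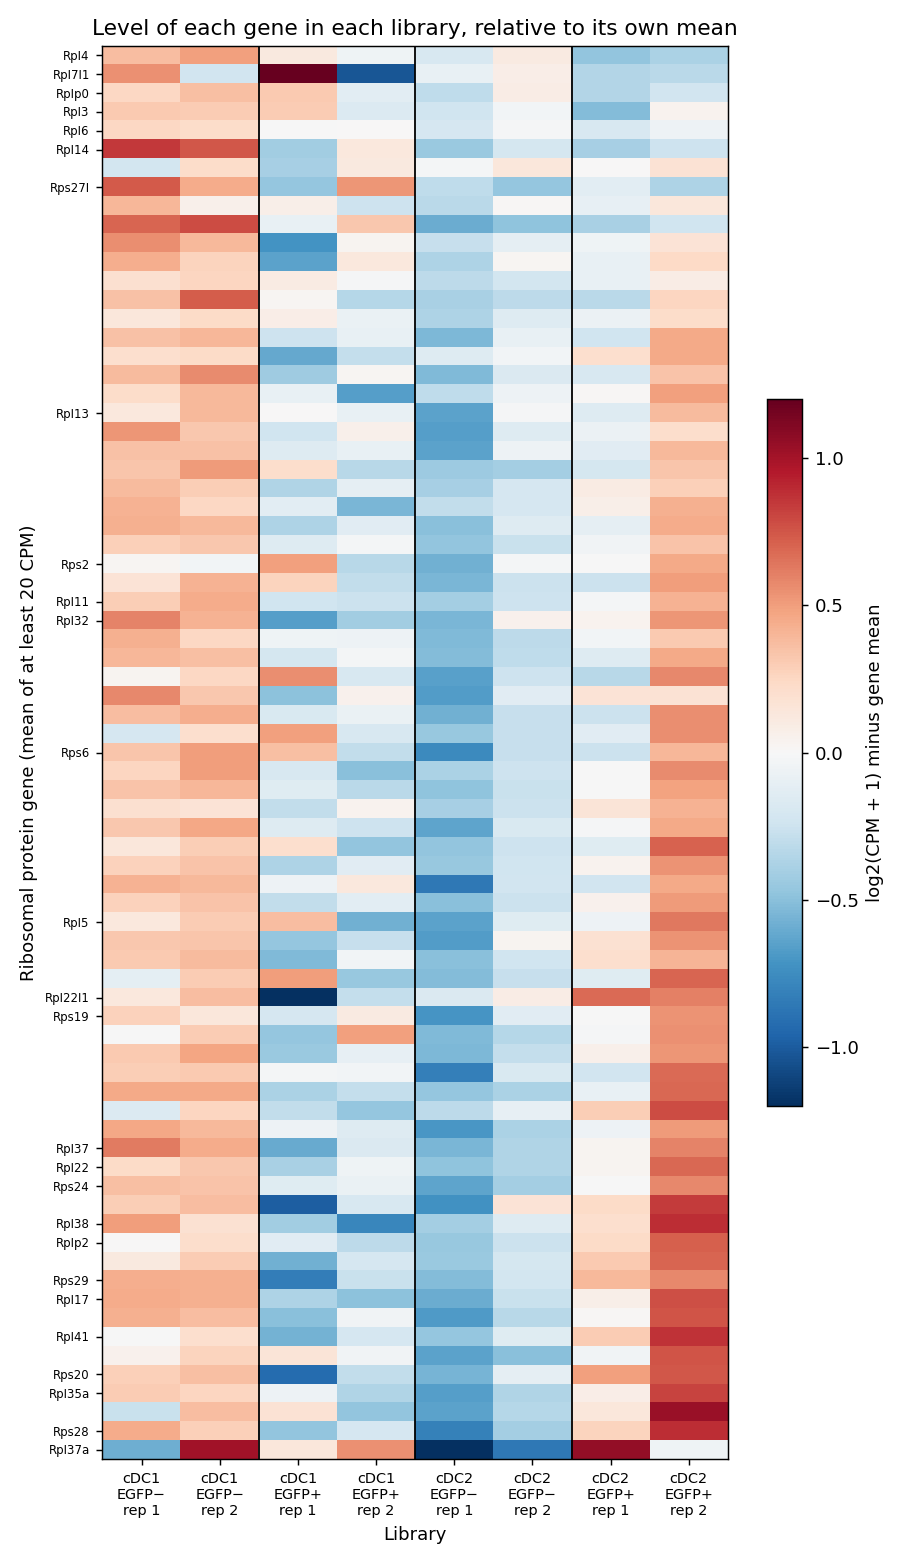
Level of each of 75 members (rows) in each library (columns) as log2(CPM + 1) minus the gene's mean, with red above and blue below; values beyond the colour scale take its end colours. Both cDC2 EGFP- columns are mostly blue and both cDC1 EGFP- columns mostly red, and rows run from the lowest to the highest EGFP difference in cDC2, with some rows named.

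Members with roles of their own followed the group pattern to differing degrees. In the stalk, which recruits elongation factors, Rplp1 was at -0.61 in cDC1 and 0.67 in cDC2, whereas Rpl12 was at -0.00 and 0.74. Rpl5 and Rpl11, which bind 5S ribosomal RNA and can restrain Mdm2, were at -0.25 and -0.62 in cDC1 and at 0.70 and 0.54 in cDC2. Rps6, the substrate of S6 kinase, had 769 and 866 CPM in cDC1 EGFP-, 783 and 497 in cDC1 EGFP+, 360 and 502 in cDC2 EGFP-, and 510 and 803 in cDC2 EGFP+. Its EGFP+ and EGFP- libraries overlapped in cDC1 and were separate in cDC2. Rps19 and Rps26, both mutated in Diamond-Blackfan anaemia, were at -0.25 and -0.66 in cDC1 and at 0.69 and 0.52 in cDC2. Rps27a, which is made as a fusion with ubiquitin, was at -0.07 and 0.73.

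Among the paralogs, Rpl22l1, which can replace Rpl22, had 78.6 and 93.3 CPM in cDC1 EGFP-, 26.2 and 58.8 in cDC1 EGFP+, 63.7 and 76.7 in cDC2 EGFP-, and 116 and 109 in cDC2 EGFP+. Rpl22 was at 157 and 167 CPM in cDC1 EGFP-, 101 and 129 in cDC1 EGFP+, and 137 and 215 in cDC2 EGFP+, and its cDC2 EGFP- libraries were below its others by mean. Both were lowest in one of the 2 groups that were low for most members, cDC1 EGFP+ for Rpl22l1 and cDC2 EGFP- for Rpl22. Rps27l was highest in cDC1 EGFP- by mean, at 323 and 264 CPM. Rpl7l1 varied most between replicates among members of at least 20 CPM, with 112 and 20.4 CPM in cDC1 EGFP+. Rpl37a was next, with 124 and 377 CPM in cDC1 EGFP-.

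Some members were close to absent. Rpl30 had at most 28 counts, Rpl34 26 to 92, Rps27 0 to 115 and Rps4l 0 to 267 counts in a library. Of these, Rpl30 lies just inside the minimum, with 12 and 28 counts in its highest libraries. Just outside, Rpl26, Rpl10l and Rpl39l had 0 counts in all 8 libraries, which at 3 counts over all libraries allows up to 0.0188 CPM. Rpl3l had 102 counts in cDC1 EGFP- replicate 1 and at most 6 in any other. Ribosomal protein genes have many near-identical pseudogene copies, and how the counting treated reads shared with them is not given in the sources used, so these low values and all levels of this family are uncertain. The 7 pseudogene symbols of the table summed to 17.6 to 50.9 CPM.

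By mean CPM, Rplp0 (1722), Rpl13 (1402), Rpl4 (1283), Rpl10 (1253) and Rps2 (1149) were highest. Rpl30 (0.340), Rps27 (1.32), Rpl34 (2.83), Rps4l (5.27) and Rpl7l1 (47.8) were lowest. Per kilobase of the longest principal transcript in GENCODE M21, known for 78 members, the median level was 470 CPM and Rpl13 led with 1798. That rule gives Rps20 and Rps15a lengths of 3706 and 5179 bases, far above their coding lengths of 357 and 390 bases, so their levels per length are not read. After these lengths were seen, 2 other rules were tried: Rpl13 led also with the best supported, shortest principal transcript, whereas Rpl41 led per coding length.

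The EGFP difference in cDC2 was read against member length under all 3 rules. Rps20 and Rps15a were kept in these, at 3706 and 5179 bases with the longest transcript. With the shortest best supported transcript they had 3706 and 5130 bases, also far above their coding lengths. In 3 classes from short to long, the medians were 0.68, 0.62 and 0.53 with the longest transcript, 0.76, 0.54 and 0.63 with the shortest best supported one, where they did not fall steadily, and 0.81, 0.63 and 0.45 with the coding length. Spearman's rho over 75 members was -0.28, -0.30 and -0.58. Over the 994 genes of at least 100 CPM with a length, members included, rho was -0.23, -0.26 and -0.35 under the same rules. For EGFP in cDC1, rho over the 75 members was 0.16, 0.19 and 0.28. For subset it was -0.16, -0.17 and -0.20 in EGFP- cells, and 0.28, 0.31 and 0.55 in EGFP+ cells. The size of the relation among members therefore depended on the length rule, and its difference from other abundant genes was not tested. Genes share libraries and are not independent replicates, and no p is given.

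Other genes of the translation system were read in the same way. Of 5 ribosomal protein genes outside the symbol rule (among them Rpsa, Fau, Rpl36al and Rack1, listed as Gnb2l1), 5 were lower in cDC1 EGFP+ (median -0.47) and 5 higher in cDC2 EGFP+ (median 0.46), with 0 past the threshold. Rpl36al had 346 and 307 CPM in cDC1 EGFP- and 121 and 168 CPM in cDC1 EGFP+ (-1.18 ± 0.30, edgeR adjusted p = 0.217). Of 18 translation factors and other TOP mRNAs, 14 were lower in cDC1 EGFP+ (median -0.32) and 15 higher in cDC2 EGFP+ (median 0.29), with 0 past the threshold. Among these, Eef1b2, an exchange factor for elongation factor 1, differed most between the EGFP- groups, with 535 and 554 CPM in cDC1 and 155 and 207 CPM in cDC2 (1.59 ± 0.37, edgeR adjusted p = 0.181).

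The 77 mitochondrial ribosomal protein genes had a median of -0.42 for EGFP in cDC1, and of 0.11 in cDC2, against 0.08 over all genes there. The 20 ribosome biogenesis genes had medians of -0.06 and 0.03, with 10 higher and 10 lower in each subset. Single genes lay far from these medians, such as the nucleolar gene Gnl3 at -1.35 ± 0.72 in cDC1 and 1.80 ± 0.73 in cDC2. Of the 13 regulators of TOP mRNAs and ribosomal RNA synthesis, 6 were higher and 7 lower in cDC1 EGFP+ (median -0.09). Eif4ebp1, a repressor of cap-dependent translation, ran against the members in cDC1. It had 17.9 and 25.7 CPM in EGFP- and 122 and 60.6 CPM in EGFP+ cells (2.07 ± 0.49, edgeR adjusted p = 0.193). Rptor, of low level, ran with the members in cDC1, at 8.55 and 8.86 CPM in EGFP- and 0 and 0 CPM in EGFP+ cells. In both lists 0 genes passed the threshold for EGFP in either subset, as for the mitochondrial list.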

How the data were processed

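The authors deposited 1 table of unnormalized counts per gene symbol, all whole numbers. Per the submitters' processing notes, Trimmomatic 0.39, STAR 2.7.5c, Cufflinks 2.2.1 and the mm10 build were used. Which counter, annotation and strand setting were used is not stated there. Per the labels' protocols, full-length cDNA was made by a low-input method and libraries with a KAPA kit. Each of the 8 columns was matched to a sample by name, and 0 were left over. The test was edgeR 4.0.16 in R 4.3.3 (filterByExpr, TMM, robust quasi-likelihood fit, Benjamini-Hochberg adjustment over 11394 genes), with all 8 libraries in 1 model. Averaged contrasts used additive terms. Alternatives included DESeq2 1.42.0, voom in limma 3.58.1, other scalings and filters, a replicate block and leaving out each library. Steps were tested on simulated data, where the check on estimated fold changes was applied only at a variation far below that of these libraries. The common biological coefficient of variation over all genes tested was 1.13, and it does not describe the members alone. Over the 75 members of at least 20 CPM, the median absolute log2 difference between replicates was 0.15 to 0.49 by group. With 2 libraries per group, a member short of the threshold is not shown to be unchanged. The labels do not say whether replicates came from separate animals, so p-values reflect the spread among these libraries alone, and that spread may be technical.

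The members and gene lists were chosen with earlier results of these data known. Named genes were, per contrast, the 5 members of smallest p where none passed the threshold, the 5 of highest and the 5 of lowest mean CPM, the 5 with the largest replicate differences, fixed paralogs and members with roles of their own, and up to 4 genes of smallest p in each other list. Some genes that the rule gives are not reported here. Lengths came from GENCODE M21 and sequences from RefSeq GRCm38.p6. Transcript length was first taken as the longest principal transcript. The shortest best supported transcript and the coding length were added after those results had been seen, and all 3 are reported.

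Same-numbered libraries share a code in their titles whose meaning is not given. The differences of replicate 2 from replicate 1 correlated between groups at -0.22 to 0.04 over all genes. Over members of at least 20 CPM the range was -0.31 to 0.16. With 2 libraries per group, these correlations cannot settle whether the code marks pairs. Because its meaning is not given, the replicate number was used only as an alternative.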

Additional observations from a re-analysis of the deposited data

Results flagged for a closer look

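The share of counts from ribosomal protein genes, with Rn45s removed, moved in opposite directions with EGFP: both cDC1 EGFP+ libraries lay below both cDC1 EGFP- libraries, and both cDC2 EGFP+ libraries above both cDC2 EGFP- libraries. The group means differed by -1.40 percentage points in cDC1 and by 2.36 percentage points in cDC2. The difference between these differences was -3.76 percentage points and was not tested. Without cDC1 EGFP+ replicate 2 the cDC1 difference was -0.72 percentage points, and without cDC2 EGFP+ replicate 2 the cDC2 difference was 0.80 percentage points, against 3.91 percentage points without replicate 1 of that group. With Rn45s kept in the totals, the cDC2 groups overlapped.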

How the results depend on the processing

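The count of members called was 0 with edgeR in all 7 comparisons. DESeq2 called 2 members for subset in EGFP- cells, 2 for subset in EGFP+ cells, 4 for the interaction and 1 for subset over both fractions, where it called 2.4%, 9.85%, 4.1% and 3.48% of all genes in the same directions. Voom with library quality weights called 3 for subset in EGFP- cells and 2 for subset over both fractions. For subset in EGFP- cells, a fit of the compared 4 libraries alone called 1, and a fit without both cDC1 EGFP+ libraries, added after seeing the data, called 1. Leaving out 1 library at a time gave 0 to 1 members for subset in EGFP- cells (1 to 465 genes of all kinds), 0 to 4 for subset in EGFP+ cells, 0 to 3 for the interaction, 0 to 1 for EGFP in cDC1 and 0 to 0 for the other 3. The highest counts for EGFP in cDC1, subset in EGFP+ cells and the interaction came without cDC1 EGFP+ replicate 2, where 1050, 1273 and 668 genes of all kinds were called. That fit leaves 1 library in cDC1 EGFP+, and the cause of the higher counts was not tested. Medians over members kept their sign when any library was left out in 5 comparisons, with 0.31 to 0.79 for EGFP in cDC2 and -0.49 to -0.11 for subset in EGFP+ cells, both nearest 0 without cDC2 EGFP+ replicate 2. Subset over both fractions ranged from -0.05 to 0.34 and EGFP over both subsets from -0.17 to 0.18.

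With the replicate number as a block, 0 members were called in every comparison. Whether the numbers pair the libraries is not known. RLE scaling moved the median of members for EGFP in cDC1 to -0.37 and for subset in EGFP+ cells to -0.25, with all-gene medians of 0 and -0.20. The counts of members without overlap also depended on scaling. Lower in cDC1 EGFP+ were 60 with TMM, 51 with RLE and 52 with library totals. Higher in cDC2 EGFP+ were 56 with TMM, 56 with RLE and 41 with library totals. The 46 members separate in both subsets were counted with TMM only. Without Rn45s the mean shares were 6.26%, 4.86%, 3.85% and 6.21% in cDC1 EGFP-, cDC1 EGFP+, cDC2 EGFP- and cDC2 EGFP+. In cDC1 EGFP- the share was 4.92% with the 5 genes outside the symbol rule and 4.55% with pseudogene symbols. No mitochondrial transcript had a row in the table used, so totals without them were not run. Single-gene values under alternatives covered only the 5 members of smallest p in each comparison, and not every scaling. Of these values, 612 kept their side of the threshold, 23 passed it under an alternative and 0 reversed. This does not extend to all members: for EGFP in cDC1, 73 members were lower with TMM and 69 with RLE scaling, so some signs changed. Depth limits Rpl30, Rpl34, Rps27 and Rps4l, which had at most 267 counts in a library.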
